A study of Mus musculus with 6 samples.

Results

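The SOCS family of feedback inhibitors was followed in hypoxic cardiomyocyte cultures given vehicle or β-sitosterol (β-SITO), a plant sterol. Its 8 genes, Socs1 to Socs7 and Cish, were taken by gene name from a table of 57010 genes, and each name matched 1 row. All 8 passed the filter on low counts, which kept 14799 genes for testing. The samples were 6 RNA-seq libraries of primary neonatal mouse cardiomyocytes (NMCMs), all under hypoxia (HO), of which 3 received vehicle (HO + Vehicle, V1 to V3) and 3 received the sterol (HO + β-SITO, T4 to T6). Per the study's methods the cells came from hearts of C57BL/6 mice 1 to 3 days old and were the fraction that did not adhere to plastic, after cells that adhere quickly, mainly fibroblasts, had been removed. The labels give neither the dose of β-SITO nor the time under hypoxia, normoxic cells were not analysed here, and nothing says whether the libraries of a group came from separate cultures, so p-values measure only the spread between these libraries. The HO + β-SITO library names carry a suffix that the HO + Vehicle names lack, so treatment and any separate preparation of those libraries cannot be told apart.

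Cytokines such as interferons, interleukin-6 and growth hormone bind receptors that carry JAK kinases, and these kinases phosphorylate STAT transcription factors, which enter the nucleus. Genes of the SOCS family are themselves STAT targets, and the proteins they encode bind receptors or JAKs through an SH2 domain and recruit a ubiquitin ligase through the SOCS box, which closes a negative feedback loop. SOCS1 and SOCS3 also hold a kinase inhibitory region that blocks JAKs directly. In the heart SOCS3 is known as a brake on signaling through gp130, the shared receptor subunit of the interleukin-6 family.

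The promoters of the members that changed most are shown first, because SOCS genes are read out by STAT and interferon regulatory factors that bind close to the start site. RefSeq promoter sequences of build GRCm38.p6, which hold 250 bases before and 50 bases after each start site, were matched by symbol for Socs1, Socs3, Socs4 and Cish, and Socs2, Socs5, Socs6 and Socs7 had no entry in that table. Of 5 motifs searched on both strands (for STAT factors TTC and GAA with any 3 or any 4 bases between them, for interferon regulatory factors a pair of GAAA with any 2 bases between them, for NF-κB GGGA and CC with any 4 bases between them, and ACGTG for hypoxia-inducible factors), the matches other than ACGTG are in capitals. The first pair below is the 250 bases upstream of Socs1 (chr16:10785537-10785786, minus strand) and of Socs3 (chr11:117969367-117969616, minus strand), and the third is a window of 30 bases at the Cish start site (chr9:107296654-107296683, plus strand), chosen after its values were seen.
Socs1: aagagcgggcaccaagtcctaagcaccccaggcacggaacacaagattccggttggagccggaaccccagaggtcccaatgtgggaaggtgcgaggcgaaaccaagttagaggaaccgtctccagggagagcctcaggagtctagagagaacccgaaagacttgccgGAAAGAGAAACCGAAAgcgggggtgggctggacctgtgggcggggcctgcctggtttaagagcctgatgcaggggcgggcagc
Socs3: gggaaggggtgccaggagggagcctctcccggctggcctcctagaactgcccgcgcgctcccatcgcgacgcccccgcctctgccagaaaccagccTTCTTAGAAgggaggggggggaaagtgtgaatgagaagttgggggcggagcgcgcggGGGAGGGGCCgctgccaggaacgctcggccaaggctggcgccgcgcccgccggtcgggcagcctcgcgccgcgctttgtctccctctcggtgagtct
Cish: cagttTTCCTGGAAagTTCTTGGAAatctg

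The window of Socs1 held 2 overlapping matches to the paired GAAA motif, beginning 83 and 77 bases before the start site, a motif found in 3.44% of all 32851 promoters of that length. Socs3 held 1 match to the STAT motif with 3 middle bases, 154 bases before the start site, and 1 to the NF-κB motif, 97 bases before it. Cish held 2 matches to the same STAT motif, beginning at the start site and 11 bases after it, and 2 to ACGTG, which lie upstream of the stretch shown. That STAT motif was found in 8.30% of promoters, the one with 4 middle bases in 6.95%, the NF-κB motif in 20.7% and ACGTG in 19.6%. Socs4 held none of the 5 motifs in this window, and the share of all promoters that hold none of them was not determined. A match is a description of letters and not of binding, which these libraries did not measure.

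Socs1 and Socs3, the members with a kinase inhibitory region, were the only members lower by more than 2-fold in the HO + β-SITO group. Socs2 and Socs5 rose and Cish fell by less than 2-fold, and Socs4, Socs6 and Socs7 did not pass the test. Levels are given as CPM, the usual scaling of counts to library size, here after TMM normalization, and differentially expressed genes (DEGs) had an adjusted p under 0.05 and a change of more than 2-fold, the study's threshold. By that rule 2 of 8 members were lower and 0 were higher, where 10.1% of all tested genes were lower and 12.8% were higher (22.8% in all). With the adjusted p alone 3 members fell and 2 rose, where 33.8% of all genes fell and 33.0% rose (66.8% in all). For 5 of 8 members no library of one group fell within the range of the other, against 70.5% of all tested genes. The share of members that passed was therefore close to that of all genes, and what set the members apart from each other was the size and direction of the change.

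Socs1, which encodes the inhibitor best known for restraining interferon signaling, lies on chromosome 16 from 10600104 to 10603400 in build GRCm39 on the minus strand. It had 190, 269 and 207 counts in V1 to V3 and 34, 22 and 27 counts in T4 to T6, which is 12.0, 16.9 and 12.8 CPM against 1.75, 1.24 and 1.41 CPM. Every HO + β-SITO library lay far below every HO + Vehicle library, and the highest value among the treated libraries was well under the lowest vehicle value. The mean fell from 13.9 ± 2.60 to 1.46 ± 0.260 CPM (SD, n = 3), and the fit gave -3.24 ± 0.18 (SE) on the log2 scale, 9.42-fold lower (edgeR's quasi-likelihood test, adjusted p = 3.84e-10). V2 stood above V1 and V3. Leaving out any single library kept the value between -3.38 and -3.07. Of all tested genes, 2.80% had a lower log2 fold change than Socs1.

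Socs3, the brake on the gp130 receptor, lies on chromosome 11 from 117856905 to 117860873 on the minus strand. It had 128, 135 and 121 CPM in V1 to V3 and 38.2, 36.6 and 36.6 CPM in T4 to T6. The treated libraries lay within a narrow band, and no vehicle library came near it. The mean fell from 128 ± 6.99 to 37.2 ± 0.933 CPM (SD, n = 3), and the fit gave -1.78 ± 0.06 (SE) on the log2 scale, 3.44-fold lower (adjusted p = 1.29e-12). It was the member with the most CPM in the vehicle libraries and the third in the treated ones.

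Socs1 fell further than Socs3. The log2 ratio of Socs1 to Socs3 counts, which does not depend on the scaling between libraries, was -3.41, -2.997 and -3.23 in V1 to V3 and -4.45, -4.89 and -4.70 in T4 to T6. The groups did not overlap, and the ratio was lower by 1.47 on the log2 scale in the HO + β-SITO libraries, where it ranged over less than that in either group (p = 0.1 by a two-sided exact permutation test, which cannot go lower with 3 libraries a group).

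**Figure D1:**
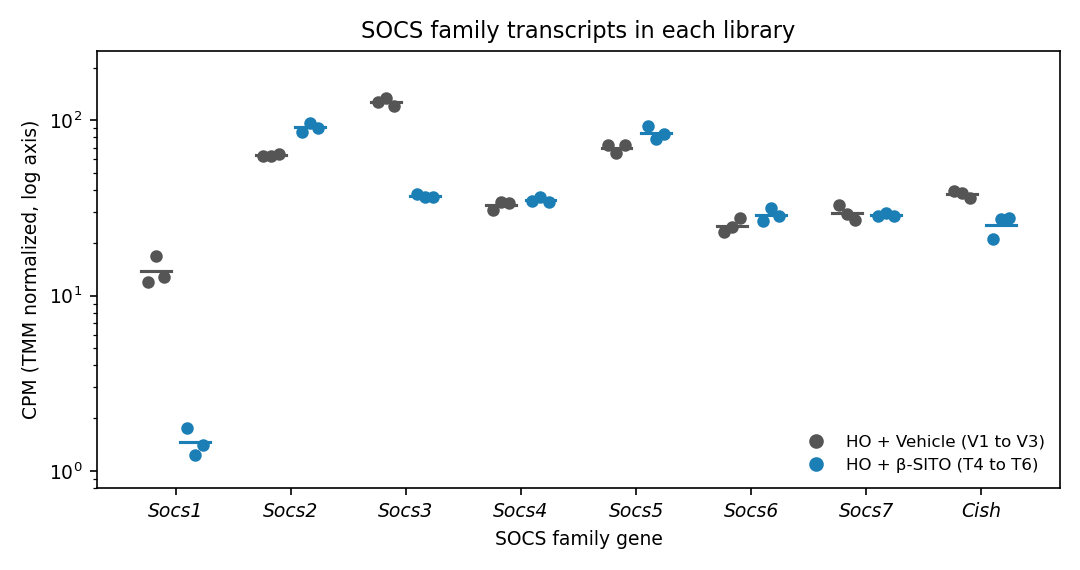
CPM of the 8 SOCS family genes in each library on a log axis, with HO + Vehicle libraries in grey, HO + β-SITO libraries in blue and bars at the group means. Socs1 and Socs3 show the widest gaps between the groups, from 13.9 to 1.46 CPM and from 128 to 37.2 CPM, while the points of Socs4, Socs6 and Socs7 overlap.

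Cish and Socs2 are the members best known as STAT5 targets, induced by growth hormone, prolactin and erythropoietin, and here they moved in opposite directions. Cish, which encodes the founding member CIS, lies on chromosome 9 from 107173225 to 107179983 on the plus strand, where the annotation of the table also holds 2 noncoding rows on the other strand with at most 8 counts in any library. It had 39.6, 38.6 and 36.1 CPM in V1 to V3 and 21.2, 27.3 and 27.7 CPM in T4 to T6, so that the groups did not overlap and T4 was the lowest library. The mean fell from 38.1 ± 1.78 to 25.4 ± 3.66 CPM (SD, n = 3), and the fit gave -0.59 ± 0.10 (SE) on the log2 scale (adjusted p = 6.11e-05). T4 also had the lowest summed level of 18 cardiomyocyte markers, 6419 CPM against 10870.0 in T5 and 10988 in T6, and the part of this in the level of Cish was not tested. Without T4 the log2 fold change of Cish was -0.47.

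Socs2, known as the brake on growth hormone signaling, lies on chromosome 10 from 95221224 to 95253042 on the minus strand. It had 62.8, 63.1 and 64.5 CPM in V1 to V3 and 85.6, 97.2 and 90.7 CPM in T4 to T6. The vehicle libraries were almost level and all 3 treated libraries lay above them. The mean rose from 63.5 ± 0.933 to 91.2 ± 5.85 CPM (SD, n = 3), and the fit gave 0.52 ± 0.06 (SE) on the log2 scale (adjusted p = 2.80e-06). The log2 ratio of Cish to Socs2 counts was -0.66, -0.71 and -0.84 in V1 to V3 and -2.01, -1.83 and -1.71 in T4 to T6, lower by 1.12 on the log2 scale and without overlap (p = 0.1 by the same exact permutation test).

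Socs4 and Socs5 form a pair with long N-terminal regions, and both have been linked to the turnover of the EGF receptor. Socs5 lies on chromosome 17 from 87415107 to 87445267 on the plus strand. It had 72.1, 65.6 and 72.4 CPM in V1 to V3 and 93.0, 78.5 and 83.8 CPM in T4 to T6, higher in every treated library but with T5 close to the vehicle range. Its log2 fold change was 0.28 with a standard error of 0.07 (adjusted p = 0.00270). Socs4, on chromosome 14 from 47514388 to 47533559 on the plus strand, had 31.0, 34.4 and 34.0 CPM against 34.8, 36.5 and 34.1 CPM, and the groups overlapped. The difference was 0.09 on the log2 scale (95% interval from the fit -0.07 to 0.24, adjusted p = 0.307).

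Socs6 and Socs7, also a related pair and linked to insulin receptor substrates, gave no change past the test. Socs6, on chromosome 18 from 88683348 to 88945605 on the minus strand, had 23.1, 24.6 and 27.7 CPM in V1 to V3 and 26.8, 31.7 and 28.4 CPM in T4 to T6, with V3 inside the treated range. Its log2 fold change was 0.20 (95% interval 0.01 to 0.40, adjusted p = 0.0562). This value lay at the edge of the threshold, and the adjusted p was under 0.05 in 8 of 14 alternative fits. Socs7, on chromosome 11 from 97253261 to 97289368 on the plus strand, had 33.0, 29.1 and 27.2 CPM against 28.5, 29.6 and 28.4 CPM, with the treated libraries inside the vehicle range. Its log2 fold change was -0.05 (95% interval -0.22 to 0.13, adjusted p = 0.628).

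**Figure D2:**
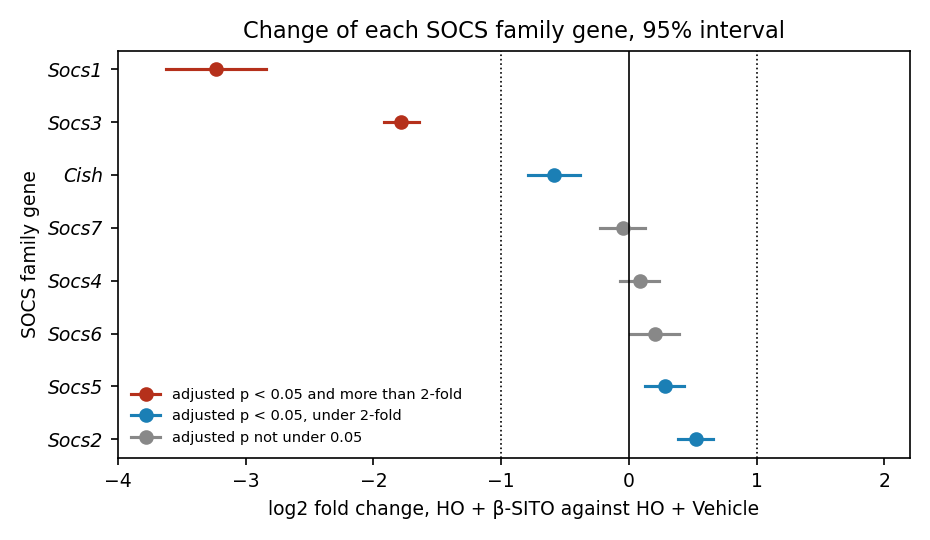
Log2 fold change of each SOCS family gene, HO + β-SITO against HO + Vehicle, with 95% intervals from edgeR's fit; dotted lines mark a 2-fold change. Socs1 at -3.24 and Socs3 at -1.78 lie beyond the 2-fold line, and Cish at -0.59, Socs5 at 0.28 and Socs2 at 0.52 lie within it with intervals that exclude 0. The adjusted p of Socs4, Socs6 and Socs7 was not under 0.05. The interval of Socs6 (0.01 to 0.40), which is not adjusted for the number of genes, also excludes 0.

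The makeup of the family's transcript pool differed between the groups. To compare levels between genes, CPM was divided by the length in kb of the longest protein-coding transcript of each gene in GENCODE vM21. In the HO + Vehicle group Socs3 was highest at 50.05 ± 2.74 CPM per kb (SD, n = 3), followed by Socs2 at 28.6, Socs5 at 15.1 and Cish at 13.4. Socs4 at 4.81, Socs1 at 4.78, Socs7 at 4.24 and Socs6 at 4.16 CPM per kb followed, with overlapping libraries. In the HO + β-SITO group Socs2 was highest at 41.0 ± 2.63 CPM per kb, before Socs5 at 18.3, Socs3 at 14.6 and Cish at 8.91. Then came Socs4 at 5.11 and Socs6 at 4.80, whose libraries overlapped, Socs7 at 4.11 and, last, Socs1 at 0.503 CPM per kb.

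As a share of the family's summed CPM per kb, Socs3 held 38.6% to 41.3% in the vehicle libraries and 14.4% to 15.8% in the treated ones. Socs2 held 22.2% to 23.7% against 40.5% to 43.9%, and Socs1 held 3.30% to 4.54% against 0.426% to 0.632%. The order depends on the length used. With all annotated exons merged, which lengthens Socs2 from 2.22 to 9.53 kb, Socs3 was still first in the vehicle group (44.2 CPM per kb) but Socs5 came before Socs2 (10.9 against 6.66), and in the treated group Socs5 was first at 13.3, before Socs3 at 12.9 and Socs2 at 9.57. The sum of the 8 genes, which uses no length, was 395 to 407 CPM in the vehicle libraries and 329.9 to 339 CPM in the treated ones.

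**Figure D3:**
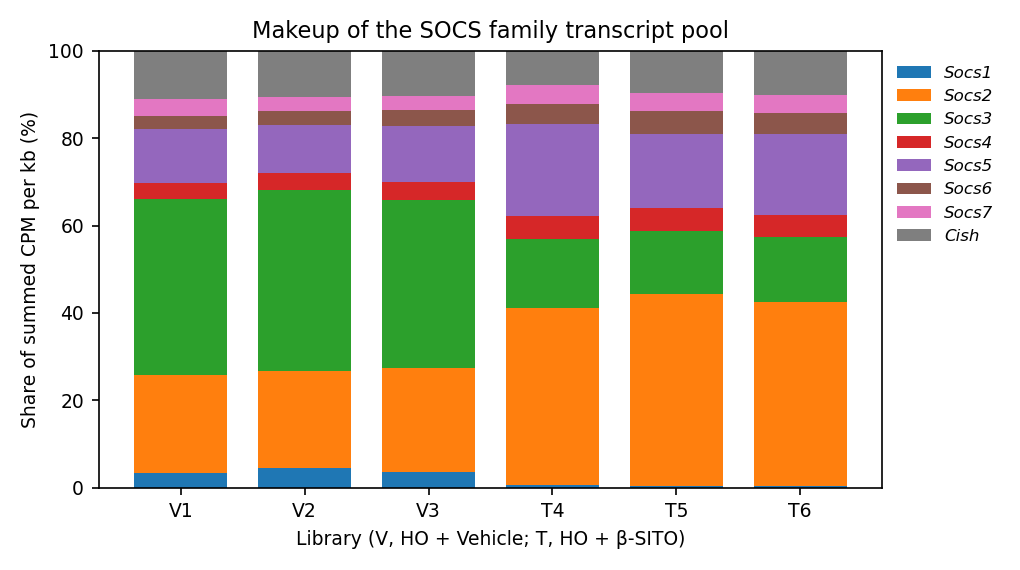
Share of each SOCS family gene in the family's summed CPM per kb of its longest protein-coding transcript, per library. Socs3 (green) takes 38.6% to 41.3% with vehicle against 14.4% to 15.8% with β-SITO, while Socs2 (orange) goes from 22.2% to 23.7% up to 40.5% to 43.9%.

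The genes whose pattern over the 6 libraries was most like that of Socs1, by the root mean square difference of centred log2 CPM among 10697 other protein-coding genes with a mean of at least 100 counts, were Psme2 (0.14), Ifi35 (0.15) and Epsti1 (0.15). Their log2 fold changes were -3.02, -3.15 and -3.13. For Socs3 they were Shisa5 (0.04), Mvp (0.04) and Loxl3 (0.05), with log2 fold changes of -1.81, -1.76 and -1.77. With 6 libraries in groups this far apart, likeness mostly reflects a similar log2 fold change.

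The other genes of the JAK-STAT pathway were taken from lists, in the order in which the signal runs. Over all of these lists 167 genes were tested, and 57 fell and 18 rose past the DEG threshold. Of all tested genes 10.1% were lower and 12.8% higher by that rule, the shares to set beside each list count below. Among the cytokine ligands 14 of 31 listed genes were tested, and 10 of these were lower and 1 higher. With at least 10 counts required in every library, which removes genes such as Il12b and Csf3 that passed through the vehicle group, 6 calls were left in place of 11. The median of the 14 tested ligands was -2.71 on the log2 scale, where that of all tested genes was -0.01. This median still holds the genes that passed through the vehicle group, which as a set lower it. Il6, the main inducer of Socs3 through gp130, had 97.6, 100.4 and 104.6 CPM in V1 to V3 and 4.37, 2.70 and 3.49 CPM in T4 to T6 (log2 fold change -4.83, adjusted p = 4.76e-15). All 3 treated libraries were at a small share of the vehicle level. Lif, another gp130 ligand, fell as well (log2 fold change -3.72, adjusted p = 3.84e-13). The 1 ligand called higher was Ctf1, which encodes the gp130 ligand cardiotrophin-1 (log2 fold change 1.03, adjusted p = 0.00109). Its counts were low, at 16, 19 and 17 in V1 to V3 and 45, 38 and 43 in T4 to T6.

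Csf3, which encodes the granulocyte growth factor G-CSF, had 219, 258 and 233 counts in V1 to V3 and 2, 1 and 1 counts in T4 to T6. Il12b, a subunit of interleukin-12, had 575, 493 and 626 counts against 0, 0 and 1. Osm, the ligand of the oncostatin M receptor, had 1.17 ± 0.462 and 1.59 ± 0.225 CPM (SD, n = 3) and did not pass (log2 fold change 0.44, adjusted p = 0.197). Of the interferon genes, Ifnb1 had 1 count over the 3 vehicle libraries and 0 over the treated ones, and Ifng had no count in any library, so neither could be tested at this depth. Growth hormone (Gh), prolactin (Prl) and erythropoietin (Epo), the classical inducers of Cish and Socs2, had at most 2 counts in any library.

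Of 31 tested receptor genes, 10 fell and 3 rose past the DEG threshold, and the list's median was -0.48 on the log2 scale. With at least 10 counts required in every library, 9 calls were left. That filter removes Prlr and Epor, which passed through the treated group, and Il13ra2 and Il12rb1, which passed through the vehicle group. Receptors of the gp130 family moved in both directions. Osmr fell from 559 ± 51.0 to 159 ± 4.17 CPM (SD, n = 3; log2 fold change -1.81, adjusted p = 3.66e-12), and Lifr fell too (-1.73, adjusted p = 2.58e-12). Il6st, which encodes gp130, fell by less than 2-fold, from 1420.2 ± 136.7 to 1148 ± 56.6 CPM (log2 fold change -0.31, adjusted p = 0.00167). Il6ra (0.97) and Il11ra1 (0.67), the specific receptor chains for interleukin-6 and interleukin-11, rose by less than 2-fold. Il13ra2, a decoy receptor for interleukin-13, had 97, 150 and 135 counts against 1, 0 and 2.

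Il15ra (-3.65) and Il2rg (-2.58), receptor chains for interleukin-15 and for the common gamma chain cytokines, were lower, and Il21r was higher (1.38). Among the interferon receptors, Ifnar2 was a DEG (-1.69), while Ifnar1 (-0.79), Ifngr2 (-0.79) and Ifngr1 (-0.48) fell by less than 2-fold. Ghr, the growth hormone receptor that SOCS2 restrains, had 188, 199.8 and 206 CPM against 178, 189.6 and 187 CPM, with overlapping groups. Its log2 fold change was -0.10 (adjusted p = 0.145), and it was 0.0432 with upper quartile scaling and 0.0483 with library size only. The receptors for prolactin and erythropoietin were near the detection limit in the vehicle libraries. Prlr had 4, 5 and 1 counts in V1 to V3 and 73, 71 and 63 in T4 to T6, and Epor had 3, 1 and 2 counts against 25, 25 and 29, both DEGs higher.

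All 4 JAK kinases fell, and 1 was a DEG. Jak2 had 369, 407 and 416 CPM in V1 to V3 and 34.5, 37.9 and 35.3 CPM in T4 to T6 (log2 fold change -3.47, adjusted p = 1.48e-15). The log2 fold changes of Tyk2 (-0.84), Jak1 (-0.78) and Jak3 (-0.41) did not reach 2-fold. Among the STAT genes, Stat2, which carries type I interferon signals, was a DEG (-3.43). Stat3 (-0.86), Stat5a (-0.84) and Stat6 (-0.34) fell by less than 2-fold, and Stat5b did not pass (0.04, adjusted p = 0.571).

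Setting brakes beside a STAT or receptor gene within a library showed unequal changes for the pairs, which were chosen after the values were seen. The log2 ratio of Socs3 to Stat3 counts was -2.11 ± 0.134 in the vehicle libraries and -3.03 ± 0.0659 in the treated ones (SD, n = 3), so that Socs3 was lower by a further 0.92 on the log2 scale. For the ratio of Socs3 to Il6st the difference was -1.48. Socs2 was higher relative to Ghr by 0.62. Each of these 3 differences had an exact permutation p of 0.1 (two-sided), the smallest possible.

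**Figure D4:**
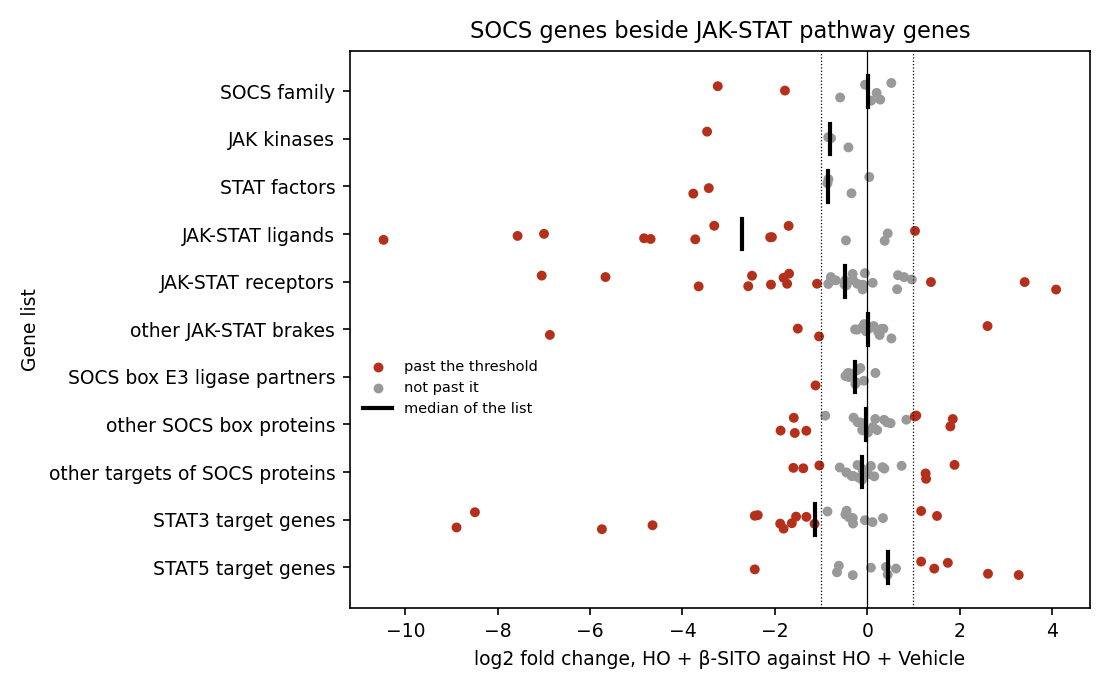
Log2 fold changes of SOCS family and JAK-STAT pathway genes, HO + β-SITO against HO + Vehicle, 1 point per tested gene with DEGs in red and the median of each list as a bar; dotted lines mark a 2-fold change. The STAT3 target list has a median of -1.14 and the STAT5 target list of 0.44, while the SOCS family spreads from -3.24 to 0.52.

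Other brakes on the pathway gave 3 DEGs lower and 1 higher of 16 (median log2 fold change 0.01), where 22.8% of all tested genes were DEGs. Usp18, which encodes the ISG15 protease that blocks the type I interferon receptor, fell most (451, 481 and 455 CPM against 5.29, 2.70 and 3.75 CPM, log2 fold change -6.87, adjusted p = 6.68e-16). The phosphatase genes Ptpn2 (-1.503) and Ptpn1 (-1.04), whose products act on JAKs and STATs, were also lower, and the call for Ptpn1 was lost with upper quartile scaling (-0.90), with library size only (-0.89), when tested against a 2-fold change (edgeR's glmTreat, adjusted p = 0.474), and without V1 or T5. Pdlim2, which encodes a nuclear ligase for STAT proteins, was higher (2.61). The PIAS genes stayed within 2-fold, from -0.26 for Pias4 to 0.31 for Pias1.

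Most ubiquitin ligase partners of the SOCS box fell by less than 2-fold. By the adjusted p alone 8 of 11 were lower and 1 higher, where 33.8% of all tested genes were lower and 33.0% higher. The list's median was -0.26 on the log2 scale. The 1 DEG was Ube2f, which encodes a NEDD8-conjugating enzyme (-1.12). It missed the threshold with upper quartile scaling (-0.98), with library size only (-0.97) and when tested against a 2-fold change (glmTreat, adjusted p = 0.0892). Cul5, the scaffold of the ligase, had a log2 fold change of -0.21, Eloc of -0.42 and Elob of -0.15, and of these Elob did not pass (adjusted p = 0.113). Among 24 tested genes of other SOCS box proteins, 4 were lower and 4 higher (median -0.03), where 22.8% of all tested genes were DEGs. The lower ones included Asb13 (-1.88), Asb4 (-1.59) and Spsb1 (-1.57), known as a regulator of nitric oxide synthase 2, and the higher ones Rab40b (1.85), Neurl2 (1.06) and Asb2 (1.03). Neurl2 fell short of 2-fold without V3 (0.98) or T5 (0.90), and Asb2 without T5 (0.89) or T6 (0.91) and with limma-voom (0.96). When tested against a 2-fold change, both were lost (glmTreat, adjusted p = 0.795 for Neurl2 and 0.927 for Asb2), and the list had 5 calls in place of 8.

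Of 20 tested genes of other proteins that SOCS family members bind or degrade, 3 were lower and 3 higher, where 22.8% of all tested genes were DEGs. Egfr, a target of SOCS4 and SOCS5, fell from 165 ± 9.61 to 54.5 ± 3.13 CPM (SD, n = 3; log2 fold change -1.60, adjusted p = 8.31e-12). Tbk1 (-1.38) and Nck1 (-1.04) were also lower, but Nck1 was not past the threshold with upper quartile scaling (-0.89), with library size only (-0.89), when tested against a 2-fold change (edgeR's glmTreat, adjusted p = 0.693), or without V3 or T6. Irs1, an insulin receptor substrate, was higher (1.26), as were Sorbs3 (1.27) and the stem cell factor receptor Kit (1.89).

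The STAT target lists differed in the direction of most of their DEGs. Of 23 STAT3 targets 12 were lower and 2 higher (median -1.14). The acute phase genes Saa3 (-8.89), Lcn2 (-8.49) and Hp (-5.74) fell most, and Ccnd1 (1.17) and Fos (1.51) rose. Of 13 STAT5 targets 1 was lower and 5 were higher (median 0.44, the value of Osm, which did not pass). The summed level of the STAT5 list did not rise, at 967 to 998 CPM in the vehicle libraries and 948 to 989 in the treated ones. Igf1, the growth factor gene induced by growth hormone in liver, rose from 29.8 ± 2.90 to 182 ± 4.40 CPM (SD, n = 3; log2 fold change 2.62), as did Cebpa (3.28) and Lyve1 (1.75), while Pim1, also on the STAT3 list, fell (-2.43). Lyve1 is also a marker of lymphatic endothelium and resident macrophages. Macrophage and endothelial markers differed between the groups as well, as given below, and their part in the levels of the STAT5 list was not tested.

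Cell type markers moved with the groups as well. In bulk samples fewer cells of a type and less RNA per cell cannot be told apart. The labelled cardiomyocytes were present by their markers, with all 18 tested and Myh6 at 1973 ± 278 CPM in the vehicle group (SD, n = 3). These markers summed to 7322 to 8469 CPM in the vehicle libraries and 6419 to 10988 in the treated ones. The 10 fibroblast markers summed to 30257 to 31533 CPM against 45696 to 46836. Most of that sum came from the collagen genes Col1a1, Col1a2 and Col3a1, with Col3a1 at a mean of 10422 against 18850 CPM. Sums of different gene lists do not give the relative amounts of the cell types. Of the cardiomyocyte list 4 were DEGs higher, among them Myl7 (2.39) and Myh7 (1.61), and 0 lower. Myh7 had 17.1, 10.9 and 12.3 CPM in V1 to V3 and 18.4, 54.0 and 50.6 CPM in T4 to T6. T4 thus lay close to V1. Among the 18 cardiomyocyte markers 7 were higher and 2 lower (Tnnt2 -0.47 and Pln -0.42) by the adjusted p alone. Of all tested genes 33.0% were higher and 33.8% lower by that rule. Of the fibroblast list 1 was a DEG higher (Fbln1, 1.83). The fibroblast count was 2 without V3 or without T6, 3 with upper quartile scaling and 4 with library size only. By the adjusted p alone 7 of 10 were higher and 2 lower (Dcn -0.52 and Postn -0.22), where 33.0% of all tested genes were higher and 33.8% lower. Pdgfra did not pass (0.13, adjusted p = 0.0901). The 15 macrophage markers summed to 1413 to 1539 CPM against 3002 to 3682 CPM, with 10 higher, among them Mrc1 (4.79) and Cx3cr1 (3.86), and 2 lower, Fcgr1 (-2.18) and Cd14 (-1.56). The others, Adgre1 (-0.06), Ptprc (-0.03) and Itgam (0.47), stayed within 2-fold. Among the 10 higher, Cd163 passed the filter on low counts through the treated group (0, 0 and 2 counts against 32, 36 and 32).

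Endothelial markers summed to 720 to 803 CPM against 1270 to 1288, with 9 of 10 higher, such as Vwf (4.09) and Emcn (2.51). Eng, the marker with the most CPM of that list, fell by less than 2-fold, from 535 to 409 CPM (-0.39, adjusted p = 4.89e-05). Mural cell markers summed to 1191 to 1298 CPM against 2136 to 2428, with 6 of 10 higher, such as Cnn1 (2.77) and Kcnj8 (1.99). Of 12 lymphocyte markers 1, Cd4, passed the filter on low counts, and Cd3d, Cd3e and Cd3g had 0 counts in every library. Of 10 neutrophil markers 2 were tested, Csf3r and Camp, both lower, and Ly6g had no count in any library. Camp passed the filter through the vehicle group (27, 29 and 31 counts against 0, 5 and 2). The untested S100a8, S100a9 and Ngp were not lower, with 19, 18 and 6 counts over the vehicle libraries and 23, 26 and 20 over the treated ones. The list thus gave no common direction. The part of these differences in the levels of the SOCS genes was not tested.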

How the data were processed

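RNA-seq was measured in 6 libraries of hypoxic NMCMs. Per the labels, the submitters' processing notes name FastQC, HISAT2, featureCounts and build GRCm39, with versions and the strand setting not given in the sources used here. The authors deposited raw gene counts without normalization, between 16694734 and 18460522 per library. Reads from genes that overlap a member on the other strand could not be told apart if strand was not used.

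From these counts, R 4.3.3 with edgeR 4.0.16 was used (filterByExpr, TMM, quasi-likelihood test, Benjamini-Hochberg adjustment over 14799 genes), with group as the only term. The study used DESeq2, which here was an alternative (version 1.42.0), as was limma 3.58.1. The standard error is the absolute log2 fold change over the square root of F, and the intervals are at 95%. The biological coefficient of variation was 6.52%. No pair of libraries agreed within sampling noise. Lengths came from GENCODE vM21 (GRCm38), matched by gene identifier, and promoters from RefSeq (GRCm38.p6). The fit was also run on simulated data, which checks the code and not the results given here.

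The members and lists were chosen with earlier results of these data known. Named genes were all members, JAKs and STATs, a set list of receptors and ligands, and up to 3 DEGs in each direction with a mean of at least 50 counts from every other list. Names outside this rule were chosen after their values were seen. They were PIAS genes, ligase subunits, untested genes, Il6ra, Il11ra1, Il12rb1, Ctf1 and some markers. These markers were Myh6, Tnnt2, Pln, Col1a1, Col1a2, Col3a1, Dcn, Postn, Pdgfra, Adgre1, Ptprc, Itgam, Cd163, Eng, Cd4 and Camp. Some genes of the lists, and results that rest on them, are not reported here. Alternatives were other tests, normalizations, filters and fold cutoffs, removal of mitochondrially encoded genes and removal of each library in turn.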

Additional observations from a re-analysis of the deposited data

How the results depend on the processing

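Of 16 alternatives, 15 left the number of SOCS family DEGs at 2. Without the fold-change cutoff it was 5, because Socs2 (0.52), Socs5 (0.28) and Cish (-0.59) then passed, and the pathway genes passing went from 75 to 132 and the marker genes from 35 to 54. Socs7 changed sign with upper quartile scaling (0.10), with library size only (0.10) and without HO + Vehicle replicate 1 (0.0555), and Ghr changed sign with upper quartile scaling (0.0432) and with library size only (0.0483). Those 2 scalings moved the median log2 fold change of all genes from -0.01 to 0.14 in both cases and the share of higher genes among DEGs from 55.9% to 63.7% and 63.9%. Under them Socs4 also had an adjusted p under 0.05 (0.0116 and 0.00976). The adjusted p of Socs6 was between 0.00253 and 0.160 over 14 alternatives. Leaving out single libraries gave log2 fold changes of -3.38 to -3.07 for Socs1, -1.80 to -1.74 for Socs3, -0.65 to -0.47 for Cish, 0.50 to 0.57 for Socs2, 0.21 to 0.37 for Socs5 and -0.0852 to 0.0555 for Socs7. The Socs1 to Socs3 and Cish to Socs2 ratios stayed within the replicate spread. The cause of these shifts was not tested. No paired analysis was possible because the groups share no replicate number.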

Other observations

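Some genes of the pathway lists were too low for the test and had nearly all of their counts in 1 group. Stat4, which transmits interleukin-12 signals, had 2 counts over the 3 HO + Vehicle libraries and 19 over the 3 HO + β-SITO libraries, and Il12rb2, a chain of the interleukin-12 receptor, had 0 and 19. Il12a, which encodes the other subunit of interleukin-12, had 33 and 4 counts, and Il2ra had 17 and 0. Il12rb1, the other chain of the interleukin-12 receptor, had 79, 93 and 104 counts in V1 to V3 and 1, 2 and 3 in T4 to T6. It passed the filter on low counts through the vehicle group.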
